A study of Mus musculus with 9 samples.

Results

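The growth hormone and insulin-like growth factor (IGF) axis was followed through 10 genes, chosen by name: Ghr, Stat5b, Socs2, Cish, Igf1, Igfals, Igfbp1, Igfbp2, Igfbp3 and Igfbp4. All 10 were among the 24411 genes of the expression table, and all 10 were among the 11199 genes with enough counts to be tested, each of them also if any 1 of the 3 groups is set aside. Poly(A) RNA had been sequenced from 9 mouse livers, 3 in each of 3 groups. The cont. mice were Atg7flox/flox and carried no Cre recombinase. The Atg7-KO mice were Atg7flox/flox;Alb-Cre, in which Cre under the albumin promoter deletes Atg7, a gene needed for autophagy, in hepatocytes. The Atg7-KO;p62-S351A mice, called S351A from here on, were Atg7flox/flox;Alb-Cre with p62S351A on both alleles, a form of the autophagy receptor p62 in which a serine is replaced by alanine. All 3 groups thus carried floxed Atg7, and both mutated groups carried Cre. The study describes 3-month-old mice. Animals with the p62 allele and intact Atg7 were not analysed here, so the S351A allele was compared only within the Atg7-deleted liver.

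Growth hormone from the pituitary binds its receptor on hepatocytes and activates the kinase JAK2, which phosphorylates the transcription factor STAT5B. STAT5B then induces Igf1, the main source of IGF-1 in the circulation, as well as Igfals and the feedback inhibitors Socs2 and Cish. In blood most IGF-1 travels in a ternary complex with IGFBP3 and the acid-labile subunit encoded by Igfals, while the smaller binding proteins IGFBP1, IGFBP2 and IGFBP4 carry it outside that complex. Igfbp1 is known for being repressed by insulin and induced by fasting and stress.

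Sequences around the start sites of Cish, Igfals and Igfbp1 are shown because these were the genes in which a textbook motif of the axis was found by its letters. Promoters of 300 bases, 250 before the start site and 50 after it, came from RefSeq for GRCm38.p6 and were matched by symbol for 9 of the 10 genes. Socs2 was not in the promoter table. The motif TTCNNNGAA, the palindrome that STAT proteins bind, and the motif CAAAACAA, the core of the insulin response sequence, were searched on both strands. TTCNNNGAA occurred in 8.298% of all 32851 promoter windows and in at least 1 window of 9.554% of 27025 genes, among them 2 of the 9, Cish and Igfals. CAAAACAA occurred in 2.511% of all windows and 2.883% of genes, among them 1 of the 9, Igfbp1. The stretch of Cish is chr9:107296654-107296683, that of Igfals chr17:24877981-24878214 and that of Igfbp1 chr11:7197537-7197781, all on the plus strand, with the matches in capitals:
Cish: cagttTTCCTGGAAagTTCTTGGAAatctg
Igfals: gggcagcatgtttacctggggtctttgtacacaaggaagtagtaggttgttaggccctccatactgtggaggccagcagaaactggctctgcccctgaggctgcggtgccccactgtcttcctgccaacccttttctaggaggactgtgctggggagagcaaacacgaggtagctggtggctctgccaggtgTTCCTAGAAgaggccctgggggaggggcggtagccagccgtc
Igfbp1: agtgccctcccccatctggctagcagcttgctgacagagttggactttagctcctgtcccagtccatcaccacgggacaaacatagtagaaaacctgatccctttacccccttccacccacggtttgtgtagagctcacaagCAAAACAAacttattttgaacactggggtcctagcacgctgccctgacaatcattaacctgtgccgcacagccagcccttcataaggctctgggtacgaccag
Cish held 2 matches, from base 1 to 9 and from base 12 to 20 of the transcribed strand. A window with 2 or more matches was found in 0.4566% of all windows. In Igfals the printed match lay 58 to 50 bases before the start site, and another start site of the same gene had a match 236 to 228 bases before it. In Igfbp1 the match lay 108 to 101 bases before the start site. A match of letters is a description and not a measured binding site.

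Library totals ranged from 713841 to 15426575 counts, and each S351A library (713841 to 792372) was smaller than every library of the other groups, so that depth and the S351A allele cannot be told apart. Levels are given as CPM, counts relative to the library total after TMM scaling, on which 3 counts, taken as the floor, corresponded to 0.267 to 3.70 CPM. These floors cover counting error only. Atg7, the deleted gene, was measured at 44.8, 57.3 and 42.1 CPM in the cont. livers, at 29.9, 27.8 and 28.2 CPM in the Atg7-KO livers and at 21.7, 24.7 and 22.1 CPM in the S351A livers, so every library with Cre was below every cont. library. The table counts whole genes, and the exons left after Cre recombination, as well as the other liver cells, can still give Atg7 reads. With scaling to the total library size in place of TMM, the log2 fold change of Atg7 in Atg7-KO moved from -0.74 (adjusted p = 0.00757, edgeR) to -0.21 (adjusted p = 0.829). Xist and 4 Y-linked genes marked 2 male and 1 female mice in cont., and 1 male and 2 female mice in each of the other groups. Hepatocyte markers such as Alb and Ttr were abundant in all libraries. Their summed level over 8 genes was 51507 to 113870 CPM in the cont. livers, 39843 to 45987 CPM in the Atg7-KO livers and 38446 to 49352 CPM in the S351A livers.

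In the Atg7-KO livers 6 of the 10 genes fell (Ghr, Stat5b, Igf1, Igfals, Igfbp2 and Igfbp4) and 2 rose (Cish and Igfbp1) against cont. Socs2 and Igfbp3 were not called. A gene was called when edgeR's quasi-likelihood F test gave a Benjamini-Hochberg adjusted p under 0.05 over the 11199 genes and the fold change exceeded 1.5. Of all genes tested, 38% were called in this comparison, 19.9% higher and 18.1% lower, so changed genes were common in these livers. The median log2 fold change of the 10 genes was -1.03, beside -0.03 over all genes. In S351A against cont., 6 of the 10 genes were called, 2 higher and 4 lower, where 28.6% of all genes were called, 15.6% higher and 13% lower, and the median was -0.84 beside -0.03. The libraries of Atg7-KO and cont. did not overlap in 8 of the 10 genes, beside 51.6% of all genes, and those of S351A and cont. in 7, beside 38%. The comparisons with cont. share the same 3 control livers. In S351A against Atg7-KO none of the 10 genes was called, where 0.00893% of all genes, 1 gene, was called by edgeR. At an unadjusted p under 0.05, 1 of the 10 genes (Igf1) passed in that comparison, beside 6.6% of all genes, and DESeq2 and limma-voom also called none of the 10.

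**Figure D1:**
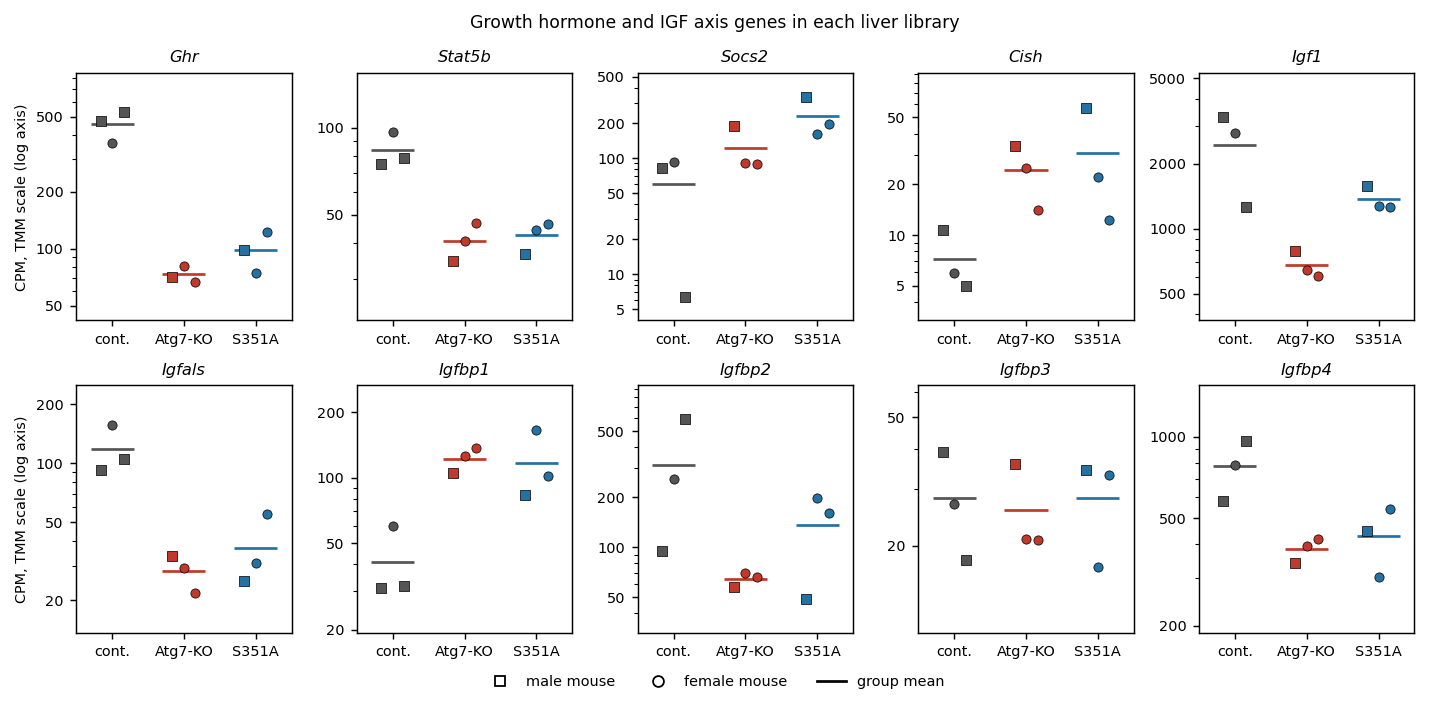
CPM on the TMM scale (log axis, with a different range in each panel) of the 10 genes in each of the 9 libraries, with squares for male and circles for female mice and a line at the mean of the 3 libraries. Ghr, Stat5b, Igf1, Igfals, Igfbp2 and Igfbp4 were lower and Cish and Igfbp1 higher in all 3 Atg7-KO libraries than in any cont. library.

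The growth hormone receptor showed the largest fold change of the 10 genes in Atg7-KO. Ghr (chr15:3317760-3583492, minus strand, mm10) was measured at 472, 362 and 530.0 CPM in the cont. livers, at 71.2, 81.3 and 66.8 CPM in the Atg7-KO livers and at 98.1, 74.0 and 123 CPM in the S351A livers. The cont. values lay well above all others, and those of both mutated groups overlapped. Ghr was 6.22-fold lower in Atg7-KO (log2 fold change -2.64, SE 0.25, n = 3 and 3, adjusted p = 1.27e-05, edgeR). In S351A it was 4.63-fold lower than in cont. (log2 -2.21, SE 0.25, adjusted p = 8.96e-05, edgeR). S351A exceeded Atg7-KO by 0.43 on the log2 scale (95% interval -0.11 to 0.96, adjusted p = 0.838, edgeR). Among 20 other ways of processing, Ghr stayed called and lower against cont. in every fit for both mutated groups.

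Stat5b (chr11:100780731-100850724, minus strand), which encodes the transcription factor downstream of the receptor, had 75.1, 96.5 and 78.9 CPM in the cont. livers, 34.6, 40.6 and 46.8 CPM in the Atg7-KO livers and 36.5, 44.4 and 46.6 CPM in the S351A livers. The cont. livers did not overlap with either mutated group. Stat5b fell 2.06-fold in Atg7-KO (log2 -1.05, SE 0.19, adjusted p = 0.00123, edgeR) and 1.97-fold in S351A (log2 -0.98, SE 0.21, adjusted p = 0.00471, edgeR). With scaling to the total library size the values were -0.51 (adjusted p = 0.0508) and -0.49 (adjusted p = 0.0901), and neither was called. Its paralog Stat5a lies 8.626 kb away on chromosome 11 and is close in sequence, so reads may be divided between them, and Stat5a itself was at -0.41 in Atg7-KO (adjusted p = 0.124, edgeR) and -0.13 in S351A (adjusted p = 0.715, edgeR). S351A and Atg7-KO differed in Stat5b by 0.07 on the log2 scale (95% interval -0.39 to 0.53).

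Of the 2 feedback inhibitors, Cish rose in both mutated groups and Socs2 was not called. Cish (chr9:107296026-107302784, plus strand), an SH2 protein that dampens STAT5 signalling and is itself a STAT5 target, was measured at 10.7, 5.94 and 4.98 CPM in the cont. livers, 33.9, 24.9 and 14.1 CPM in the Atg7-KO livers and 57.0, 22.2 and 12.3 CPM in the S351A livers. All libraries of both mutated groups were above the highest cont. library, but within each mutated group the values spread over more than a factor of 2. Cish rose 3.79-fold in Atg7-KO (log2 1.92, SE 0.49, adjusted p = 0.00814, edgeR) and 4.72-fold in S351A (log2 2.24, SE 0.53, adjusted p = 0.00821, edgeR). The counts were few, between 10 and 50 per S351A library. Without the Atg7-KO library of replicate 1 the rise in Atg7-KO was 1.57 (adjusted p = 0.0516), and without the S351A library of replicate 1 the rise in S351A was 1.38 (adjusted p = 0.0867). With all libraries thinned to the smallest, the rise in Atg7-KO was 1.88 (adjusted p = 0.0873, edgeR) and not called. Cish overlaps the genes Gm17040 and Gm17041 on the other strand, and the strand setting of the counting was not given in the sources used here.

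Socs2 (chr10:95385362-95417180, minus strand), whose product marks the receptor complex for degradation, had 81.5, 92.7 and 6.40 CPM in the cont. livers, 188, 90.9 and 88.6 CPM in the Atg7-KO livers and 336, 160.3 and 195 CPM in the S351A livers. The third cont. library was far below the other two, and Atg7-KO overlapped with cont., whereas every S351A library was above every cont. library. The log2 fold change was 1.07 in Atg7-KO (SE 0.68, adjusted p = 0.236, edgeR) and 1.98 in S351A (SE 0.70, 95% interval 0.46 to 3.49, adjusted p = 0.0512, edgeR). Neither was called. In Atg7-KO the value ran from 0.49 to 1.69 over the 20 other fits and was called in 1 of them, that with no filter (1.04, adjusted p = 0.0248). The value in S351A was called in 9 of 20 other ways of processing, among them the fit without the third cont. library (1.39, adjusted p = 0.0221). In both mutated groups the only male mouse had the highest Socs2 and the highest Cish of its group, but with 1 male in each no test of sex within them was made.

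Igf1 was the most abundant of the 10 genes in CPM in every library. Igf1 (chr10:87858265-87937042, plus strand), the hormone that carries most of the growth effect of the axis, was measured at 3292, 2778 and 1264 CPM in the cont. livers, 790.3, 644 and 601 CPM in the Atg7-KO livers and 1579.8, 1279 and 1267 CPM in the S351A livers. The Atg7-KO livers were below all others, and the S351A livers lay above the lowest cont. liver and below the other two. Igf1 fell 3.602-fold in Atg7-KO (log2 -1.85, SE 0.33, adjusted p = 0.00103, edgeR). In S351A it was 1.78-fold below cont. (log2 -0.83, SE 0.33, adjusted p = 0.0744, edgeR), which was not called. Without the third cont. library, the lowest of its group, this value was -1.15 (adjusted p = 0.00482) and was called, as it was with no filter (-0.92, adjusted p = 0.0261) and by DESeq2 (-0.82, adjusted p = 0.0409). In the other 17 fits it was not called, and it shrank to -0.58 without the first cont. library and to -0.38 (adjusted p = 0.420) with scaling by library totals. Igf1 overlaps Igf1os on the other strand.

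Against Atg7-KO, Igf1 was 2.03-fold higher in S351A (log2 1.02, SE 0.33, 95% interval 0.31 to 1.73), and all 3 S351A libraries exceeded all 3 Atg7-KO libraries, as was the case for 7.67% of all genes in that comparison. Its unadjusted p of 0.00868 became 0.622 after adjustment over all genes (edgeR), and over the 20 other ways of processing the difference was 0.91 to 1.14 with adjusted p from 0.0639 to 1.00. The difference therefore did not pass the test. Of the 10 genes, Igf1 was the only one whose S351A and Atg7-KO libraries did not overlap in either direction, beside 16.9% of all genes.

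Igfals (chr17:24865997-24882010, plus strand) encodes the acid-labile subunit, which holds IGF-1 and IGFBP3 together in the circulation. It had 92.2, 156 and 105 CPM in the cont. livers, 33.6, 29.2 and 21.8 CPM in the Atg7-KO livers and 25.1, 30.8 and 55.1 CPM in the S351A livers. No library of either mutated group reached the lowest cont. library. Igfals fell 4.13-fold in Atg7-KO (log2 -2.05, SE 0.29, adjusted p = 0.000228, edgeR) and 3.19-fold in S351A (log2 -1.67, SE 0.31, adjusted p = 0.00217, edgeR), and it stayed called in all 20 other fits of each comparison. S351A and Atg7-KO differed by 0.37 (95% interval -0.32 to 1.07).

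Igfbp3 (chr11:7206086-7213923, minus strand), the binding protein of the same ternary complex, is made mainly by non-parenchymal cells of the liver. It had 39.2, 26.9 and 18.1 CPM in the cont. livers, 35.7, 21.03 and 20.9 CPM in the Atg7-KO livers and 34.2, 17.3 and 33.1 CPM in the S351A livers. The 3 groups overlapped throughout. The log2 fold change was -0.03 in Atg7-KO (95% interval -0.75 to 0.68, adjusted p = 0.948, edgeR) and 0.07 in S351A (95% interval -0.72 to 0.86, adjusted p = 0.907, edgeR), and its sign changed with the processing in both. Within the ternary complex, Igf1 and Igfals were thus called in Atg7-KO and Igfbp3 was not; the difference between these fold changes was not tested.

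**Figure D2:**
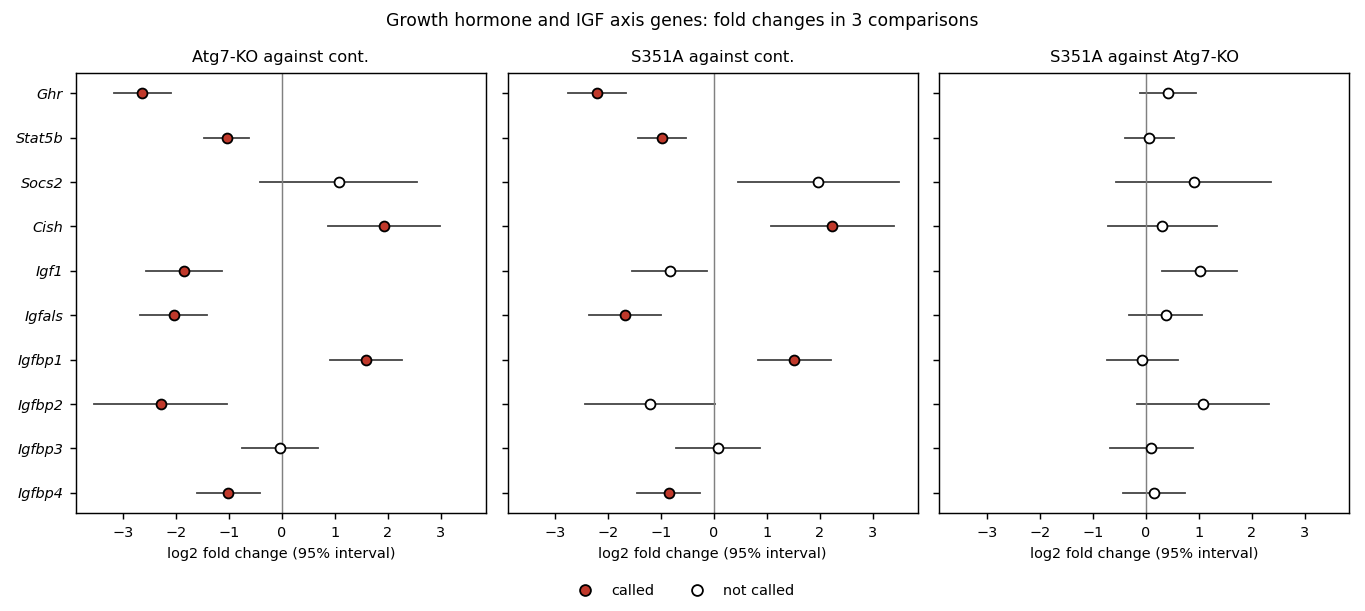
Log2 fold change with its 95% interval for the 10 genes (edgeR, 3 libraries a group) in the 3 comparisons, filled where called. Ghr had the lowest value in both comparisons with cont., at -2.64 and -2.21, and no gene was called in S351A against Atg7-KO, where Igf1 was at 1.02.

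The other binding proteins changed in different directions. Igfbp1 (chr11:7197782-7202546, plus strand), the acutely regulated binding protein, was measured at 30.9, 60.1 and 31.6 CPM in the cont. livers, 105.5, 126 and 137 CPM in the Atg7-KO livers and 83.3, 166 and 102 CPM in the S351A livers. Both mutated groups were above cont. in every library and overlapped with each other. Igfbp1 rose 3.00-fold in Atg7-KO (log2 1.58, SE 0.31, adjusted p = 0.00173, edgeR) and 2.86-fold in S351A (log2 1.52, SE 0.32, adjusted p = 0.00424, edgeR). It stayed called in all 20 other fits of each. S351A and Atg7-KO differed by -0.07 (95% interval -0.73 to 0.60). Igfbp1 and Igfbp3 are neighbours on chromosome 11, 3.539 kb apart, and the values above show the rise for the former and overlap of all groups for the latter.

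Igfbp2 (chr1:72824503-72852474, plus strand), a binding protein abundant in fetal liver and in hepatocytes of fasted animals, had 94.7, 259 and 589.9 CPM in the cont. livers, 57.6, 70.2 and 66.8 CPM in the Atg7-KO livers and 49.0, 199.7 and 162 CPM in the S351A livers. The cont. livers varied more than 6-fold among themselves, the Atg7-KO livers were all below them, and the S351A livers ran from below the lowest Atg7-KO liver to above the lowest cont. liver. Igfbp2 fell 4.88-fold in Atg7-KO (log2 -2.29, SE 0.58, adjusted p = 0.00775, edgeR). Without the third cont. library the fall was -1.46 (adjusted p = 0.0304). In S351A the value was -1.21 against cont. (SE 0.57, adjusted p = 0.127, edgeR), not called. It was called lower without the first cont. library (-1.66, adjusted p = 0.0223) and with no filter on low counts (-1.33, adjusted p = 0.00232), and it moved to -0.39 without the third cont. library. S351A stood 1.08 above Atg7-KO on the log2 scale (95% interval -0.17 to 2.32, adjusted p = 0.824, edgeR).

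Igfbp4 (chr11:99041244-99054392, plus strand), an inhibitory binding protein cleaved by the protease encoded by Pappa, had 579.7, 788 and 967 CPM in the cont. livers, 341, 394 and 421 CPM in the Atg7-KO livers and 448, 302 and 540.35 CPM in the S351A livers. The highest S351A library was just below the lowest cont. library. Igfbp4 fell 2.02-fold in Atg7-KO (log2 -1.02, SE 0.27, adjusted p = 0.0107, edgeR) and 1.81-fold in S351A (log2 -0.86, SE 0.27, adjusted p = 0.0335, edgeR). The call in Atg7-KO was lost with total library size (-0.47, adjusted p = 0.164), with libraries scaled without the 20 most abundant genes (-0.58, adjusted p = 0.0970) and without the Atg7-KO library of replicate 1 (-0.93, adjusted p = 0.0548). The call in S351A was lost in 9 of 20 fits, including those without the S351A library of replicate 2 (-0.68, adjusted p = 0.131), the S351A library of replicate 1 (-0.90, adjusted p = 0.0808) and the third cont. library (-0.68, adjusted p = 0.0867). Leaving out the second cont. library (-0.86, adjusted p = 0.0536) or either Atg7-KO library of replicate 2 (-0.87, adjusted p = 0.0552) or 3 (-0.87, adjusted p = 0.0531) also ended it.

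Divided by exon length, the order of the 10 genes differed between groups. In cont., Igf1 was at 247 ± 106 CPM per kb of exon (SD, n = 3), Igfbp4 at 176 ± 43.9 and Igfbp2 at 170 ± 137, and these 3 overlapped. Ghr followed at 50.2 ± 9.45, Igfals at 37.1 ± 10.7 and Igfbp1 at 26.8 ± 10.9 CPM per kb. In Atg7-KO, Igfbp4 (87.2 ± 9.19), Igfbp1 (80.5 ± 10.4) and Igf1 (68.5 ± 10.03) led with overlapping levels, and Ghr was at 8.07 ± 0.82 CPM per kb, near Igfals (8.91 ± 1.89), Igfbp3 (8.27 ± 2.72) and Stat5b (7.34 ± 1.11). In S351A, Igf1 led at 139 ± 17.9 CPM per kb, above the range of Igfbp4 (97.4 ± 27.2). Cish had the lowest mean in every group, at 1.12 ± 0.48 in cont., 3.79 ± 1.54 in Atg7-KO and 4.75 ± 3.66 CPM per kb in S351A.

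**Figure D3:**
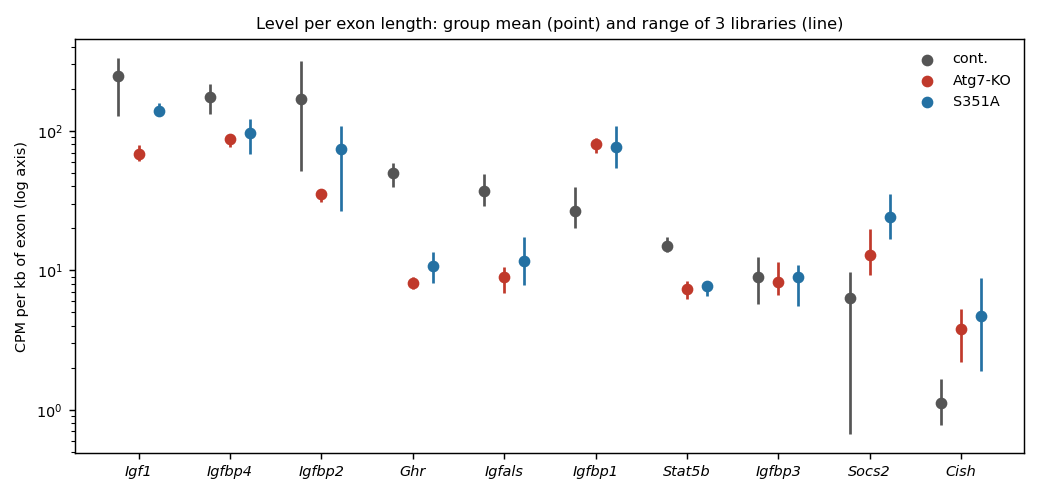
Level of the 10 genes in CPM per kb of exon (log axis), ordered by the cont. mean; points are means of 3 libraries and lines run from the lowest to the highest library. Igfbp1 was sixth in cont. at 26.8 and second in Atg7-KO at 80.5, while Ghr went from 50.2 to 8.07.

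The axis was also examined in 39 other genes of the pathway, of which 29 had enough counts to be tested. Of the 29, 3 passed the count filter only through particular groups, Pappa and Igf2bp3 through Atg7-KO and Irs2 through both mutated groups. Htra1 had no cont. library at the filter's limit either, and each mutated group alone carried it through. The counts that follow include these genes. In Atg7-KO 11 of the 29 were called, 9 higher and 2 lower, with a median log2 fold change of 0.29 beside -0.03 over all genes; this count is close to the 38% of all genes called there. In S351A against cont. 7 were called, 6 higher and 1 lower, beside 28.6% of all genes called, with a median of 0.19 beside -0.03. In S351A against Atg7-KO none was called by edgeR, and none had an unadjusted p under 0.05. Gh itself had 1 count in 1 of the 9 libraries, and Igf2, the fetal growth factor, had at most 4 counts in any library.

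Of the receptors, Igf1r, through which IGF-1 signals and which adult hepatocytes hardly express, was measured at 12.6, 15.4 and 7.92 CPM in the cont. livers, 75.6, 45.6 and 61.8 CPM in the Atg7-KO livers and 81.0, 59.2 and 46.6 CPM in the S351A livers. The lowest mutated liver had about 3 times the level of the highest cont. liver. Igf1r rose 5.35-fold in Atg7-KO (log2 2.42, SE 0.31, adjusted p = 9.34e-05, edgeR) and 5.45-fold in S351A (log2 2.45, SE 0.32, adjusted p = 0.000261, edgeR). Igf2r, which clears IGF-2, rose by 0.82 in Atg7-KO (adjusted p = 0.00583, edgeR) and 0.75 in S351A (adjusted p = 0.0193, edgeR), the latter call being lost without the S351A library of replicate 1 (0.60, adjusted p = 0.103) or the second cont. library (0.60, adjusted p = 0.0595) and with no filter (0.64, adjusted p = 0.0673). The prolactin receptor Prlr, another STAT5-activating cytokine receptor, was at 571, 909 and 113 CPM in the cont. livers, 95.4, 178 and 111 CPM in the Atg7-KO livers and 124, 311 and 312 CPM in the S351A livers, so that the third cont. liver lay within the range of Atg7-KO. Prlr fell by 2.05 on the log2 scale in Atg7-KO (adjusted p = 0.0161, edgeR), a call lost without the second cont. library (-1.41, adjusted p = 0.0645), the Atg7-KO library of replicate 1 (-1.87, adjusted p = 0.0707) or that of replicate 3 (-1.97, adjusted p = 0.0621), and it was at -1.09 in S351A (adjusted p = 0.180, edgeR). The value in S351A was called lower with sex in the fit (-1.41, adjusted p = 0.0428), without the third cont. library (-1.58, adjusted p = 0.0126) and with no filter (-1.17, adjusted p = 0.00947), and it was -0.45 without the second cont. library.

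Of the signalling proteins, Jak2, the kinase bound to the receptor, was at 0.42 in Atg7-KO (adjusted p = 0.330, edgeR) and 0.07 in S351A (adjusted p = 0.919, edgeR). Among 8 negative regulators tested, the tyrosine phosphatase gene Ptpn1 rose by 0.97 in Atg7-KO (adjusted p = 0.00208, edgeR) and 0.89 in S351A (adjusted p = 0.00836, edgeR), the latter being 0.71 (adjusted p = 0.0548) without the S351A library of replicate 1. Leprot, whose product limits the amount of growth hormone receptor at the cell surface, rose by 1.18 in Atg7-KO (adjusted p = 0.0131, edgeR; 1.03, adjusted p = 0.0643 without the Atg7-KO library of replicate 3) and was at 0.63 in S351A (adjusted p = 0.240, edgeR), where 2 other scalings called it, by all counts of a library (1.15, adjusted p = 0.0286) and by those outside the 20 most abundant genes (1.04, adjusted p = 0.0496). Socs3, a cytokine-induced inhibitor, was at -0.14 in Atg7-KO (adjusted p = 0.776, edgeR).

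Of the 4 tested genes for other binding proteins and their proteases, 3 were called higher in both comparisons with cont., beside 19.9% and 15.6% of all genes. Htra1 and Pappa are among them, and neither had a cont. library at the limit of the count filter. Igfbp7, a matrix-associated protein, rose 3.09-fold in Atg7-KO (log2 1.63, adjusted p = 0.00146, edgeR) and 2.96-fold in S351A (log2 1.57, adjusted p = 0.00339, edgeR). Htra1, a secreted serine protease, was at 2, 5 and 3 counts in cont., 30, 14 and 18 counts in Atg7-KO and 9, 4 and 10 counts in S351A, with the cont. libraries of 2 and 3 counts at or under the floor. It passed the count filter only through the mutated groups, where it was high. Its log2 values of 3.07 in Atg7-KO and 3.53 in S351A (both called higher) are therefore a description and not support for a change. These sizes rest on the few cont. counts, being 2.04 and 2.497 without the third cont. library and 3.84 and 4.30 without the second. Pappa, whose product cleaves IGFBP4, had 1, 2 and 0 counts in cont., all under the floor, beside 26, 17 and 14 counts in Atg7-KO and 4, 2 and 3 counts in S351A. In S351A 2 of the 3 libraries were at or under the floor too. Pappa passed the count filter only through the Atg7-KO libraries, where it was high, so its calls (higher in both comparisons with cont., in S351A not without the library of replicate 1) are part of the counts above but are not support for a change, and no fold change is given. Of the 4 tested regulators of transcription and mRNA, Bcl6, a repressor that opposes STAT5 at growth hormone target genes and is male-biased in mouse liver, fell by 1.86 in Atg7-KO (adjusted p = 0.00613, edgeR) and by 2.41 in S351A (adjusted p = 0.00506, edgeR). The cont. female, lowest of its group at 35.7 CPM, lay below the highest Atg7-KO liver at 37.3 CPM. With sex in the fit Bcl6 was at -1.72 (adjusted p = 0.0221, edgeR) and -2.27 (adjusted p = 0.0132, edgeR), both called. The fetal mRNA-binding protein gene Igf2bp3 had 2, 1 and 11 counts in cont., the first and second under the floor, 26, 32 and 19 counts in Atg7-KO and 2, 6 and 1 counts in S351A. It too passed the count filter only through the Atg7-KO libraries, so its value of 3.24 in Atg7-KO (called higher) is a description. In S351A it was at 2.00 (not called), which rests on these few counts and is a description too. The value in S351A was 0.98 without the S351A library of replicate 2 and 2.39 without that of replicate 3. It was called in 4 of the 17 other fits that tested it, and these calls are not support for a change.

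**Figure D4:**
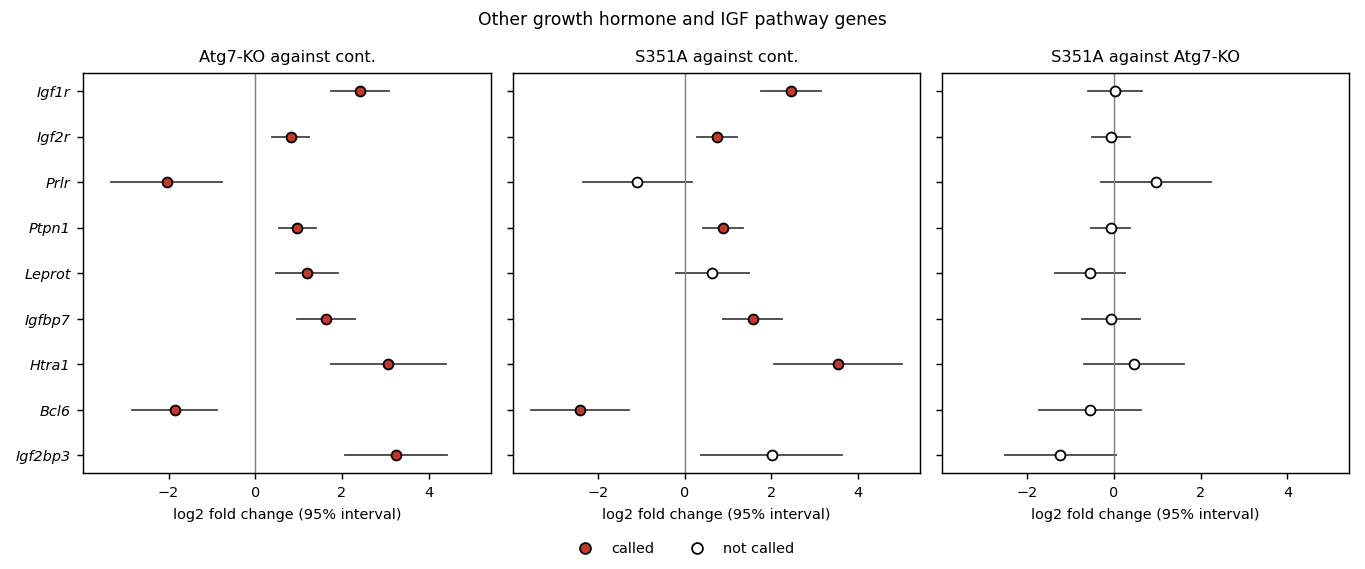
Log2 fold change with its 95% interval (edgeR, 3 libraries a group) for 9 of the other pathway genes called in at least 1 comparison, filled where called; Pappa is not drawn because its cont. libraries were under the floor. Igf1r stood at 2.42 and 2.45 in the comparisons with cont. and at 0.03 in S351A against Atg7-KO. Htra1 and Igf2bp3, which no cont. library carried through the count filter, are drawn as a description.

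Summed levels of stellate cell and matrix markers and of ductular markers were higher in every mutated liver than in any cont. liver. Those of Kupffer cell and macrophage markers and of sinusoidal endothelial markers overlapped between the groups. In bulk liver, fewer cells of a type and less RNA per cell cannot be told apart. The counts of called markers below stand beside 19.9% of all genes called higher and 18.1% lower in Atg7-KO, and 15.6% higher and 13% lower in S351A against cont. Of 8 hepatocyte markers, 5 fell in Atg7-KO (median log2 fold change -1.17) and 5 in S351A (median -1.00). The 5 in S351A became 2 without the S351A library of replicate 1 or 2 and 3 without the second cont. library or without the third. With total library size, 3 were called lower and 1 higher in Atg7-KO (median -0.62), and 1 lower and 1 higher in S351A (median -0.51). Stellate cell and matrix markers summed to 285 to 584 CPM in the cont. livers, 1292 to 1758 CPM in the Atg7-KO livers and 1165 to 1702 CPM in the S351A livers, with 6 of 8 called higher against cont. in both and no member at 0 throughout a group. Ductular markers summed to 54.9 to 136 CPM in the cont. livers, 940 to 1328 CPM in the Atg7-KO livers and 819 to 1333 CPM in the S351A livers, with all 6 tested members called higher against cont. in both. Of these, Krt7, Krt19 and Epcam had no cont. library at the limit of the count filter and passed through the mutated groups, where they were high. The same holds for Lum of the stellate list. The calls of these genes are part of the counts but are not support for a change. Kupffer cell and macrophage markers summed to 212 to 323, 260.1 to 355 and 243 to 273 CPM, with 3 of 8 called higher and 1 lower in Atg7-KO and 3 higher in S351A. The 1 lower call was that of Timd4, which passed the count filter only through cont., where it was high, and is not support for a change. Sinusoidal endothelial markers summed to 209 to 385, 282 to 337 and 285 to 303 CPM, with 1 of 8 called higher and 3 lower in Atg7-KO, and 1 higher and 1 lower in S351A, where 3 were called lower without the first cont. library or the S351A library of replicate 3. The part of these shifts in the changes of Ghr, Igf1 and the other genes was not tested.

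The mix of males and females also differed between cont. and the mutated groups. With sex as a term in the fit, the same 8 of the 10 genes were called in Atg7-KO and the same 6 in S351A. Ghr was then at -2.58 in Atg7-KO (adjusted p = 1.94e-05, edgeR), Igf1 at -1.82 (adjusted p = 0.00116, edgeR) and Cish at 2.19 (adjusted p = 0.0012, edgeR). Within males, Ghr was at 472 and 530.0 CPM in the cont. livers, 71.2 CPM in the Atg7-KO livers and 98.1 CPM in the S351A livers, and within females at 362 CPM in the cont. livers, 66.8 and 81.3 CPM in the Atg7-KO livers and 74.0 and 123 CPM in the S351A livers. Within males, Igf1 was at 3292 and 1264 CPM in the cont. livers, 790.3 CPM in the Atg7-KO livers and 1579.8 CPM in the S351A livers, and within females at 2778 CPM in the cont. livers, 601 and 644 CPM in the Atg7-KO livers and 1267 and 1279 CPM in the S351A livers. With 1 mouse on one side in each sex, no test within a sex was made.

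**Figure D5:**
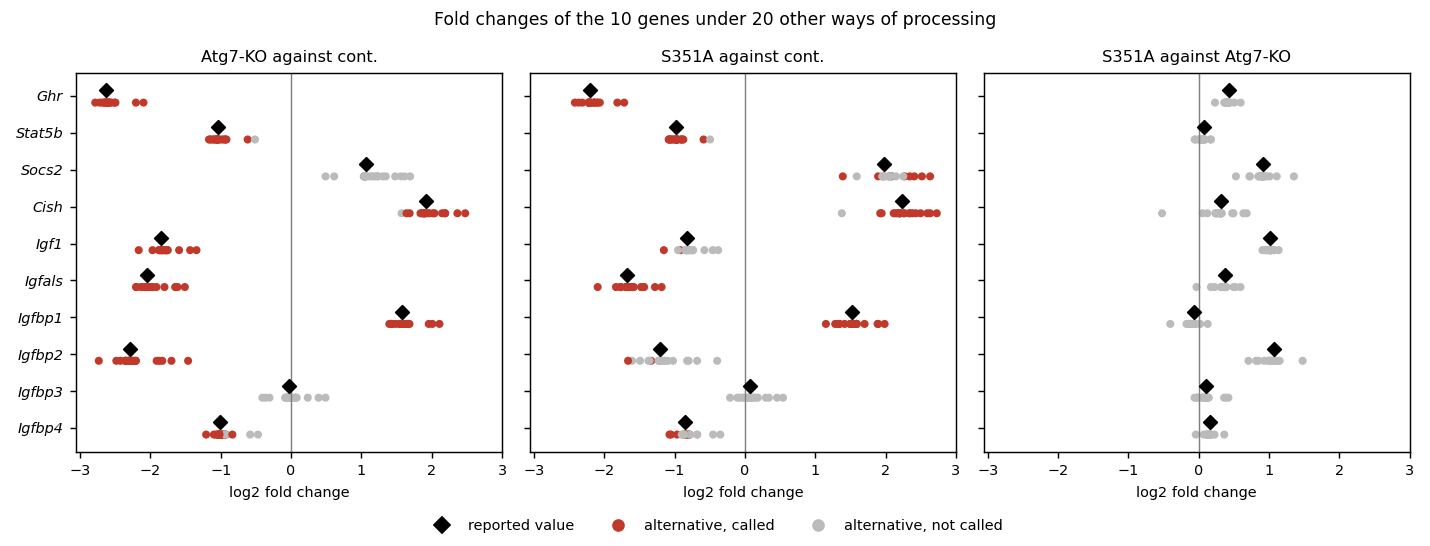
Log2 fold changes of the 10 genes as reported (diamonds) and under 20 other ways of processing (points, coloured where called) in the 3 comparisons. Ghr, Igfals and Igfbp1 stayed called against cont. throughout, the points of Igfbp3 lie on both sides of 0, and none of the 10 genes was called in S351A against Atg7-KO.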

How the data were processed

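The authors trimmed the reads of 9 liver poly(A) libraries with Trim Galore, aligned them to mm10 (STAR) and quantified genes (RSEM), per the labels' processing notes; versions, annotation and strand setting were not given in the sources used here. The deposited table holds these expected counts without scaling, and they were rounded (4.40% to 7.75% of values per library were not whole). Groups follow the sample titles, although 1 further label field gives another p62 position for 2 of the S351A mice. Nothing says how the mice were chosen, and p-values measure the spread between these 9 livers.

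Differential expression used edgeR 4.0.16 (R 4.3.3) with filterByExpr (minimum count 10, minimum total 15), TMM factors and one quasi-likelihood fit to all 9 libraries with a term per group. Standard errors and 95% intervals are those implied by the F test. The test was checked on simulated data. Alternatives were DESeq2 1.42.0 (the tool the authors used), limma-voom (limma 3.58.1), 3 other scalings, 2 other filters, the 6 compared libraries alone, a replicate block, a sex term, thinning and leaving out each library. Positions and exon lengths came from GENCODE M21 for mm10. Named were all 10 genes, Atg7, every pathway gene called in any comparison (some items of the lists are not reported here), and up to 4 called genes with the largest fold changes in each sex-biased list; Gh, Igf2, Jak2, Stat5a, Socs3 and Cyp3a41a were added after their values were seen. The genes and lists were chosen with earlier results of these data known.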

Additional observations from a re-analysis of the deposited data

How the results depend on the processing

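Each of the 10 genes was refitted under 20 alternatives in each of 3 comparisons. Of these 600 refits, 541 kept the direction and the side of the threshold, 17 lost a call, 15 gained one and 27 changed sign, none of the last from a called value. The number of the 10 genes called was 6 to 9 in Atg7-KO, 4 to 9 in S351A against cont. and 0 throughout in S351A against Atg7-KO. Total library size moved the median of all genes to 0.511 in Atg7-KO and 0.463 in S351A, and scaling without the 20 most abundant genes to 0.402 and 0.365. With these scalings the split of called genes in S351A against cont. went from 2 higher and 4 lower to 3 and 2, and to 3 and 3. Over all genes the split went from 2226 higher and 2028 lower in Atg7-KO to 4284 and 801 (total) and 3777 and 976 (without the 20), and from 1746 and 1460 in S351A to 3498 and 512, and 3040 and 638. Over all genes, S351A against Atg7-KO gave 1 call as reported and 0 to 98 otherwise, 98 with no filter and 40 with DESeq2. Calls in Atg7-KO, 4254 as reported, were 2628 after thinning all libraries to the smallest and 2505 with at least 10 counts in every library, and calls in S351A against cont., 3206 as reported, were 2098, 1942 and, with the 6 compared libraries alone, 1853. Without the S351A library of replicate 1 they were 2099. Of the other pathway genes, 11 called in Atg7-KO became 6 with at least 10 counts in every library, 17 without the 20 most abundant genes and 18 with total library size; 7 called in S351A became 13 and 15 under the latter scalings, and were 4 to 8 without one library, the fewest without the S351A library of replicate 1.

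Signs changed as follows. Igfbp3 in Atg7-KO was 0.066 with at least 10 counts in every library, 0.391 without the 20 most abundant genes, 0.0086 with limma-voom, 0.052 with sex in the fit, 0.012 with the 6 compared libraries, 0.489 with total library size and -0.364 to 0.237 without one library. In S351A against cont. it was -0.017 after thinning, -0.028 with no filter and -0.211 to 0.340 without one library. In S351A against Atg7-KO the ranges without one library were -0.522 to 0.682 for Cish, -0.033 to 0.593 for Igfals, -0.405 to 0.128 for Igfbp1, -0.060 to 0.422 for Igfbp3, -0.043 to 0.363 for Igfbp4, -0.050 to 0.174 for Stat5b, -0.211 to 0.210 for Igf1r, -0.205 to 0.0074 for Igf2r, -0.402 to 0.173 for Igfbp7 and -0.245 to 0.073 for Ptpn1. After thinning, Stat5b was -0.058 and Ptpn1 0.0596, and Igf1r was -0.017 without the 20 most abundant genes, -0.028 with no filter and -0.032 with total library size.

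The replicate numbers of the titles do not pair the mice by any label, and deviations of same-numbered libraries correlated at between -0.04 and 0.31, under 0.1 in 4 of 9 pairs; not every library correlated best with its own number. With the replicate block, 8, 0 and 7 of the 10 genes were called in Atg7-KO, S351A against Atg7-KO and S351A against cont., the added gene being Socs2 (2.27, adjusted p = 0.0137), and 4313, 1 and 3410 of all genes.

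Depth limits the S351A livers most. Their libraries held 10 to 50 counts of Cish and 14 to 30 of Igfbp3, and after thinning every library to that depth Cish in Atg7-KO was no longer called (1.88, adjusted p = 0.0873). Since the smaller libraries are exactly the S351A group, what depth contributes to the lack of calls against Atg7-KO cannot be told apart from the allele. Groups of 3 libraries were not tested for an outlying library.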

Other observations

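Growth hormone also sets much of the difference between male and female liver, through the pattern of its release, and genes known for this were followed in 2 lists. Of 12 male-biased genes, 9 were tested, and 7 were called lower in Atg7-KO and 5 in S351A against cont. (edgeR), beside 18.1% and 13% of all genes called lower, with median log2 fold changes of -4.15 and -2.97. Cont. held 2 males and the other groups 1 each. With sex as a term in the fit, 5 were called lower in each comparison, with medians of -3.26 and -2.01. The counts also depended on single libraries. Without the third cont. library 4 of 9 were called lower in each comparison, and without the second, the only cont. female, 11 of 11 in Atg7-KO and 10 of 11 in S351A. Without any other single library they were 5 to 9 in Atg7-KO and 4 to 6 in S351A. Elovl3, a fatty acid elongase that passed the count filter only through the cont. libraries, was at 876 and 649 CPM in the cont. males, 6.91 CPM in the Atg7-KO male and 38.8 CPM in the S351A male. In females it was at 17.8 CPM in cont., 0 in both Atg7-KO livers, and 1.23 and 2.45 CPM in S351A. Slco1a1, an organic anion transporter, was at 350.5 and 414 CPM in the cont. males, 7.14 CPM in the Atg7-KO male and 37.6 CPM in the S351A male. Serpina1e, a serine protease inhibitor with close paralogs that can share its reads, was at 3859 and 5928 CPM in the cont. males, 102 CPM in the Atg7-KO male and 157 CPM in the S351A male. Cyp4a12b, whose paralog Cyp4a12a can share its reads, fell by 4.40 in Atg7-KO (adjusted p = 0.0196, edgeR) and was at -2.84 in S351A (adjusted p = 0.126, edgeR). With sex in the fit, Slco1a1 stood at -4.86 in Atg7-KO and -3.10 in S351A, and Serpina1e at -4.63 and -3.91, all called lower. Elovl3 then stood at -6.83 and -4.10, values that are a description, since only the cont. libraries, where it was high, carried it through the filter. Its lower calls are part of the counts above but are not support for a change.

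Of 13 female-biased genes, 6 were tested. Of these, 2 passed the count filter only through particular groups, Cyp2b13 through cont. and S351A and Acot3 through S351A. The counts and medians that follow include them. In Atg7-KO 1 was called higher and 1 lower, beside 19.9% and 18.1% of all genes, with a median of -3.14, but the median turned to 3.90 without the second cont. library, the only female of its group. Without the first cont. library 6 of 11 were called lower and without the third 9 of 11, and the 1 lower call was lost without any one of the Atg7-KO libraries. In S351A against cont. 1 of 6 was called, and it was higher, beside 15.6% of all genes called higher and 13% lower, with a median of -1.13. Without the second cont. library 4 were called, each higher, with a median of 6.56, and without the third 1 of 11 was called higher and 3 lower. The 1 call in S351A was lost without any other single library. With sex in the fit, 1 was called higher and 5 lower in Atg7-KO, and 1 higher and 3 lower in S351A. Cyp3a41a, with close paralogs, was then at -6.15 in Atg7-KO and -2.16 in S351A, both called lower. Cyp2a4, a steroid hydroxylase, was higher in both (5.41 in Atg7-KO and 4.27 in S351A with sex in the fit), though its near-identical paralog Cyp2a5 can share its reads. Cyp2b13, the 1 lower call in Atg7-KO, was at 849 counts in the cont. female, at 0 in both cont. males, at 0, 1 and 2 counts in Atg7-KO and at 0, 5 and 10 counts in S351A. Its lower calls are part of the counts above but are not support for a change. The level of female-biased genes in cont. females rests on that 1 mouse. These lists were chosen with earlier results of these data known.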
